A study of Homo sapiens with 12 samples.

Results

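Interferon-stimulated genes are the antiviral genes that a cell switches on after interferon reaches it. The 38 genes described here were chosen by name, and all 38 had an entry among the 58830 of the deposited table. Of these, 35 had 3 or more of the 12 libraries at a normalized count of 10 or higher, as did 20456 genes in all. MX2, RSAD2 and XAF1 did not reach that level. RNA was sequenced from A549, a human lung adenocarcinoma epithelial line, in 4 groups of 3 libraries collected at day 5. The groups were the miR-22/SNAI1 edited derivative Sm22mut given TGFβ at 10 ng/mL, the same derivative untreated, wild type given TGFβ at 10 ng/mL, and wild type untreated. TGFβ is a growth factor that drives epithelial cells towards a mesenchymal state, and miR-22 is a microRNA whose target SNAI1 encodes a repressor of epithelial genes. The labels name no other agent, so no group is recorded as having been given interferon. Because only Sm22mut carries the edit, effects of the edit and of deriving that line cannot be told apart.

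Type I interferons bind the receptor made of IFNAR1 and IFNAR2, whose kinases JAK1 and TYK2 phosphorylate STAT proteins. Of these, STAT2 joins IRF9 in the complex ISGF3, which binds interferon-stimulated response elements (ISREs) in the promoters of target genes. Type III interferons reach the same complex through IFNLR1 and IL10RB and act mainly on epithelium, while interferon gamma acts at gamma-activated sites (GAS). Airway epithelial cells are the first cells that respiratory viruses meet, and the proteins made from these genes sense viral RNA, degrade it, block its translation or hold virus particles at membranes. In RNA from whole cultures, fewer cells with a transcript and less transcript per cell cannot be told apart.

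Recovered reads ran from 84210775 to 111141708 per library. SNAI1, the gene of the edited link, had normalized counts of 1406, 1214 and 1318 in the edited line with TGFβ, against 513, 499 and 432 in the untreated edited line. Its counts were 958, 897 and 768 in wild type with TGFβ, against 510.4, 400.4 and 576 in untreated wild type. With TGFβ the edited line lay above wild type without overlap, and the untreated lines overlapped. Whether the edited site changes the SNAI1 read count was not tested, so these values do not check the labels. The epithelial keratin gene KRT8 averaged 275324 ± 20607 normalized counts in the edited line with TGFβ, 346244 ± 6105 in the untreated edited line, 279880.0 ± 33849 in wild type with TGFβ and 323710.0 ± 6524 in untreated wild type (SD, n = 3 libraries, as for all means below). The means of all 5 listed epithelial genes were lower with TGFβ in both lines. CDH1 averaged 10285 ± 336 with TGFβ and 34091 ± 1721 untreated in the edited line. In wild type CDH1 was at 9233 ± 204 and 28540 ± 1821. Untreated, EPCAM was lower in the edited line (1852 ± 17.2) than in wild type (2191 ± 38.7), unlike KRT8 and CDH1. The plasmacytoid dendritic cell marker CLEC4C was at 0 in all 12 libraries. The summed count of 8 leukocyte markers was 71.1 to 78.5 in the edited line with TGFβ, 119 to 139 in the untreated edited line, 62.2 to 95.6 in wild type with TGFβ and 79.8 to 112 in untreated wild type. Of those 8, 4 passed the filter, and the pan-leukocyte gene PTPRC averaged 1.77 ± 2.16 in the edited line with TGFβ and 7.35 ± 0.909 in the untreated edited line, 0.733 ± 1.27 in wild type with TGFβ and 13.9 ± 1.72 in untreated wild type. PTPRC passed only through untreated wild type, where it was high. The other passing markers had other patterns. NKG7 was higher with TGFβ, at 15.1 ± 6.23 against 2.15 ± 3.72 in the edited line. In wild type it was at 17.0 ± 5.39 against 4.04 ± 4.37. LYZ was at 36.1 ± 12.8 in the untreated edited line and 15.2 ± 8.61 in untreated wild type. CD14 was at 78.4 ± 26.5 and 59.6 ± 13.7 in those groups. Mitochondrial reads made up 2.20% to 2.64% of the libraries of the edited line with TGFβ, 2.23% to 2.51% of the untreated edited line, 2.73% to 3.79% of wild type with TGFβ and 2.54% to 2.83% of untreated wild type. The part of these differences in the results below was not tested.

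Many of the genes were transcribed without any added agent. Counts were divided by the kilobases of exon of each gene, taken over all its annotated transcripts. The transcripts expressed may be shorter, so places between genes are approximate. On this scale the RNA-degradation activator OAS1 had the highest level in untreated wild type (1862 ± 262 normalized counts per kilobase). It was ahead of OAS3 (942 ± 25.5) and the membrane protein gene IFITM2 (920.3 ± 12.4). The ranges of OAS3 and IFITM2 over the 3 libraries overlapped in that group, while OAS1 lay above both in every library. The viral RNA sensor DDX58, at 188 ± 6.01, held place 13. The growth-restricting antiviral gene SAMD9 held place 2 in the edited line with TGFβ (787 ± 17.8 per kilobase) and place 3 in wild type with TGFβ (585 ± 143), against place 15 in untreated wild type (145 ± 10.3). IFI44L was near the bottom in untreated wild type, at 0.582 ± 0.259 per kilobase.

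Of the 3 genes below the filter, MX2, a nuclear-pore GTPase that restricts HIV, had no read in any of the 6 libraries with TGFβ. Its normalized counts were 6.19, 5.36 and 9.81 in the untreated edited line and 1.99, 1.65 and 2.15 in untreated wild type. With 3 reads per library taken as the limit of a count of 0, MX2 was at least 2.19-fold lower with TGFβ in the edited line. RSAD2, which encodes the antiviral enzyme viperin, ranged from 0 to 20.9 over the 12 libraries, and the apoptosis-linked gene XAF1 from 0 to 3.30. The 35 other genes are drawn library by library in the heat map of deviations from each gene's mean.

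**Figure D1:**
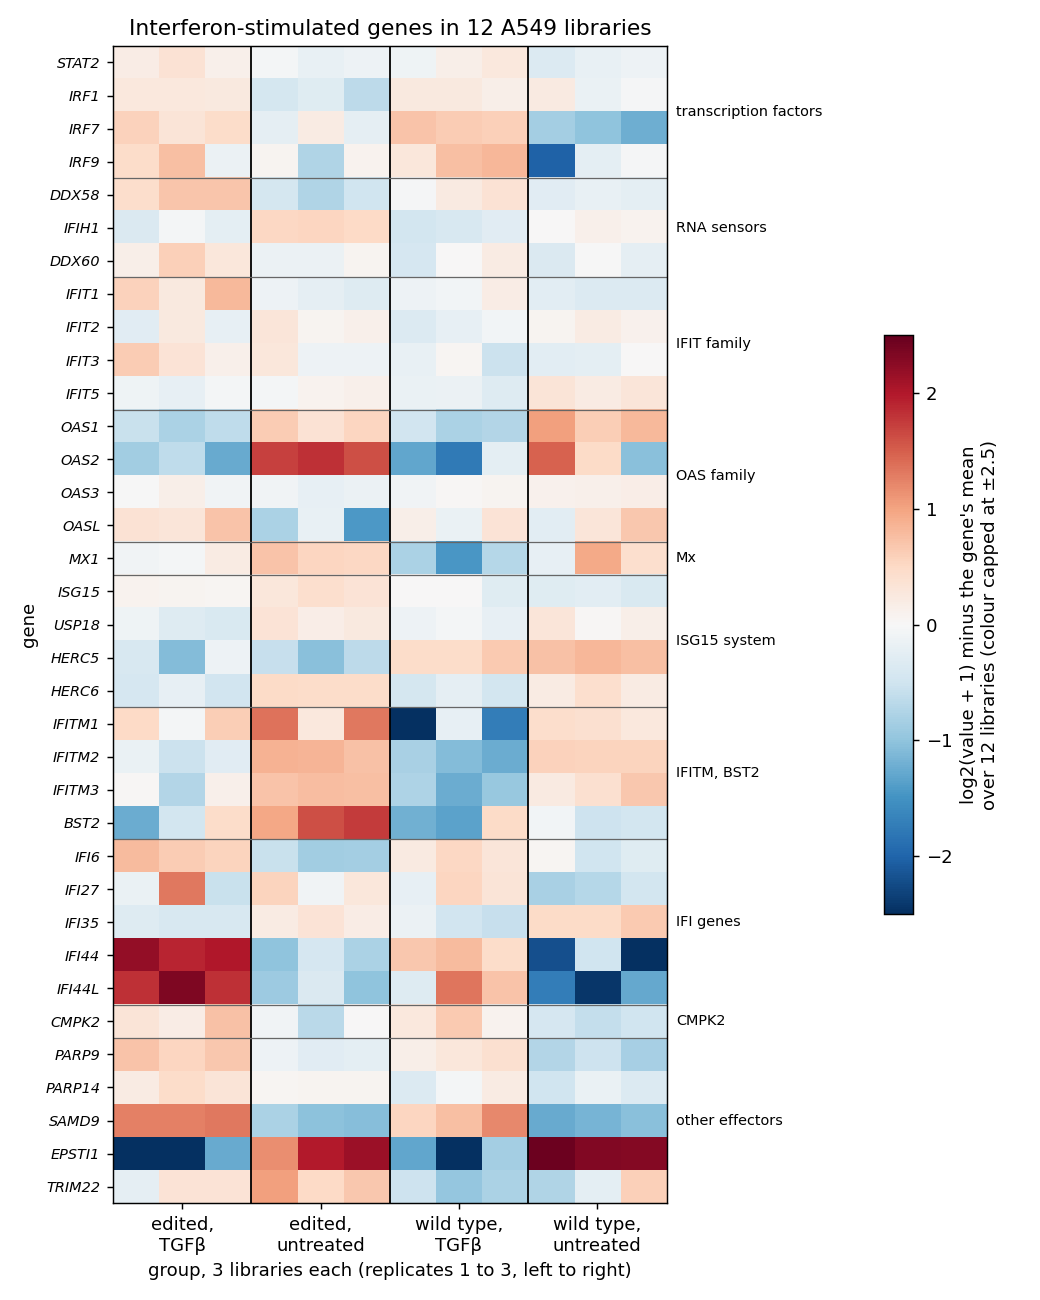
Each row is 1 of the 35 genes and each column 1 library, with the 3 replicates of a group side by side; colour gives log2(normalized count + 1) minus the gene's mean over the 12 libraries. The rows of IFI44 and SAMD9 are red and those of EPSTI1, OAS1 and IFITM2 blue in the TGFβ columns of both lines. IFI44L is red there too, except in replicate 1 of wild type with TGFβ, which lay below the gene's mean.

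The stretches of promoter that hold ISRE cores are shown for genes that moved with TGFβ in opposite directions, because these genes share the motif. RefSeq promoter windows (build GRCh38.p14, 250 bases before to 50 after each start) were found for 30 of the 38 genes. The ISRE core searched was GAAANNGAAA on both strands (TTTCNNTTTC where it lies on the other strand), and overlapping matches were counted. It was present in 21 of the 30 genes (70.0%), against 4.38% of the 27305 genes and 3.57% of the 35116 windows of the table. Capitals mark the cores, and all stretches run 5′ to 3′ on the strand of the gene. The genes that rose with TGFβ in both lines are IFI44L (chr1:78620272-78620396, plus strand), IFI44 (chr1:78649759-78649792, plus strand), SAMD9 (chr7:93118094-93118127, minus strand) and IFI6 (chr1:27672264-27672360, minus strand). The genes that fell in both lines are IFIH1 (chr2:162318684-162318855, minus strand), IFITM3 (chr11:320874-320924, minus strand) and EPSTI1 (chr13:42992270-42992303, minus strand). ISG15 (chr1:1013372-1013411, plus strand) and HERC5 (chr4:88456982-88457066, plus strand) were not called with TGFβ in either line.
IFI44L: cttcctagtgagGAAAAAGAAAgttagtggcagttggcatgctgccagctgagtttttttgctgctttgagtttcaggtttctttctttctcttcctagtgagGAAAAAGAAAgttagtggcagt
IFI44: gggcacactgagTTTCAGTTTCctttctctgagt
SAMD9: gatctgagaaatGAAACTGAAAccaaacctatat
IFI6: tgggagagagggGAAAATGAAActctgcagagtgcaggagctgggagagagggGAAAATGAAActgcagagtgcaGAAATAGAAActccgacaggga
IFIH1: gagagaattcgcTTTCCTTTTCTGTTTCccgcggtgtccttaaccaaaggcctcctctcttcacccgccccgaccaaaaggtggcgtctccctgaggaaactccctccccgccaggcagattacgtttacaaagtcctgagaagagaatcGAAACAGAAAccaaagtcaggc
IFITM3: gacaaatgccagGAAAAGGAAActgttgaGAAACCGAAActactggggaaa
EPSTI1: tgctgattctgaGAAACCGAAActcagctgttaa
ISG15: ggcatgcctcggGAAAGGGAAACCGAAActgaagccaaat
HERC5: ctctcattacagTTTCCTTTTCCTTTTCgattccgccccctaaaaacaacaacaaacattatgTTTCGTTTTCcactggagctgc

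Of the genes with a window, the core was present in 9 of 13 that rose with TGFβ in the edited line, 4 of 7 that fell and 7 of 8 that were not called. In wild type it was present in 6 of 10 that rose, 6 of 9 that fell and 8 of 9 that were not called. SAMD9, IFI44 and EPSTI1 held 1 core each, IFI44L and IFITM3 held 2, and IFI6, IFIH1 and HERC5 held 3. The GAS core TTCNNNGAA, whose reverse complement is the same letters, was present in 11 of the 30 genes (36.7%), against 9.38% of the genes of the table. The 300-base window of OAS1 held no ISRE core and 2 GAS cores. A match describes the letters and does not show that a factor binds there.

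The first question was how each line responded to TGFβ. TGFβ moved these genes in both directions in both lines. In the edited line, TGFβ against untreated, 15 of the 35 rose and 10 fell by limma's moderated test (adjusted p under 0.05), and 10 were not called; over all genes tested, 32.1% rose and 30.7% fell (62.8% in either direction). In wild type, 11 of the 35 rose, 12 fell and 12 were not called, against 30.8% and 30.9% of all genes (61.7% in either direction). The median log2 fold change of the 35 was 0.16 in the edited line, where that of all genes was 0.03, and -0.13 in wild type, where that of all genes was 0.02. Libraries of the groups did not overlap for 15 genes higher and 14 lower in the edited line, against 35.0% and 34.2% of all genes, and for 12 higher and 14 lower in wild type, against 32.2% and 32.0%. These shares lie near those of all genes. The genes that fell include BST2 in the edited line and EPSTI1 in both lines, which passed the filter only through untreated libraries, where they were high. The genes called higher in both lines were STAT2, IRF7, DDX58, IFI6, IFI44, IFI44L, CMPK2, PARP9, PARP14 and SAMD9, and those called lower in both were IFIH1, OAS1, OAS2, USP18, HERC6, IFITM2, IFITM3, IFI35 and EPSTI1. The lines share no library in these comparisons.

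**Figure D2:**
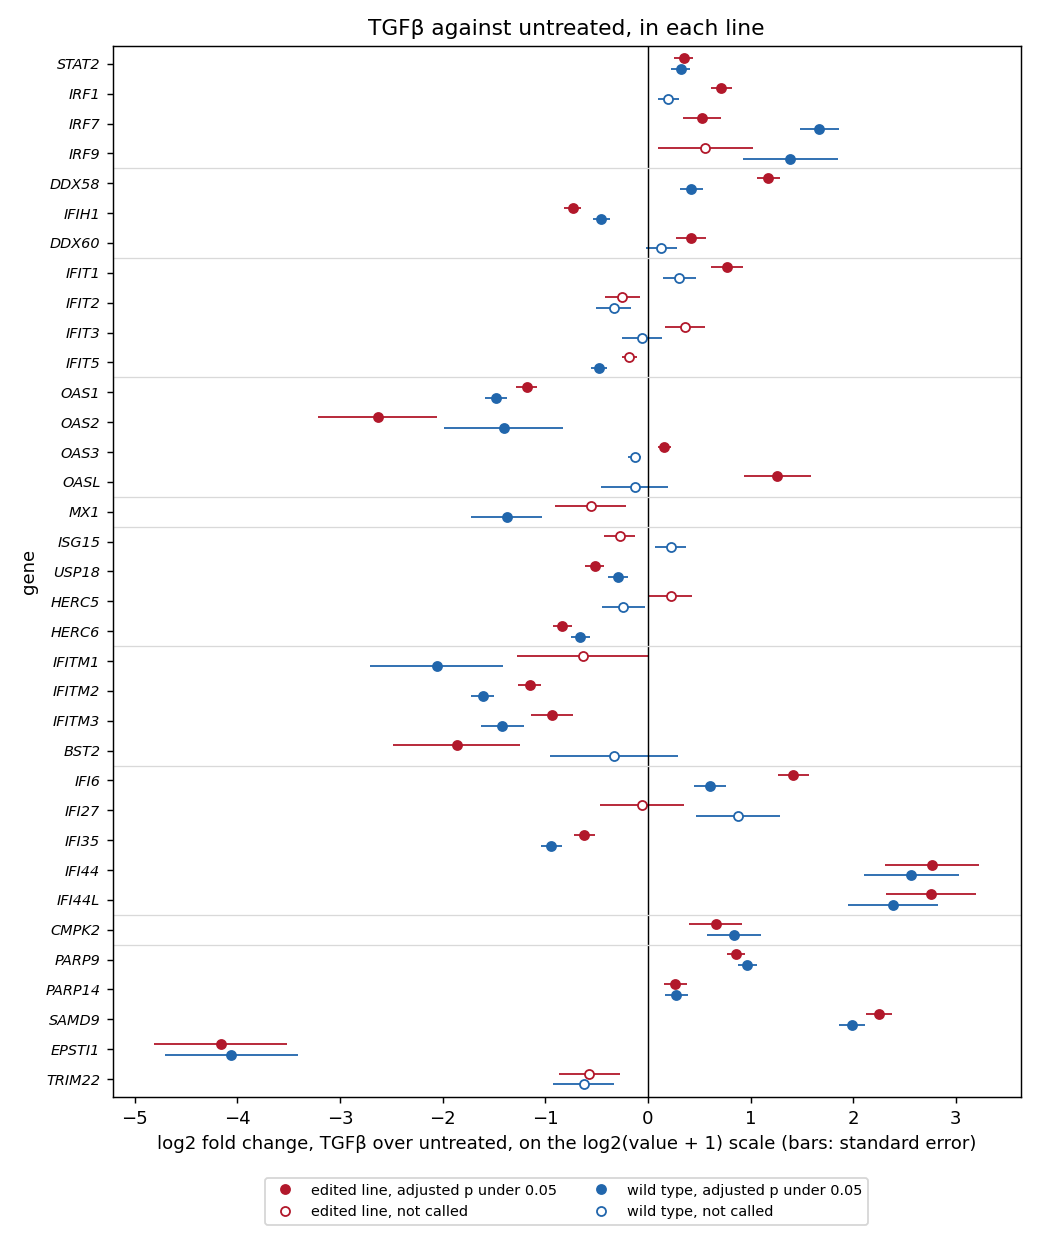
Each row is a gene and the horizontal axis its log2 fold change, TGFβ over untreated, in the edited line (red, upper point) and wild type (blue, lower point), with bars of 1 standard error and filled points where the adjusted p was under 0.05. IFI44, IFI44L and SAMD9 lie furthest to the right and EPSTI1 furthest to the left in both lines.

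The largest rises were in IFI44 and IFI44L, neighbouring genes for cytoplasmic proteins that dampen viral replication, and in SAMD9. IFI44 had normalized counts of 208, 169 and 181 in the edited line with TGFβ, against 21.7, 33.3 and 25.3 in the untreated edited line. Wild type counts of IFI44 were 71.4, 77.7 and 61.4 with TGFβ, against 8.97, 31.3 and 4.30 untreated. Every treated library lay above every untreated one of its line, and the log2 fold change was 2.77 ± 0.46, adjusted p = 6.27e-05 in the edited line and 2.57 ± 0.46, adjusted p = 0.000139 in wild type. The wild type value was 3.29 without replicate 2 and 1.98 without replicate 3 of untreated wild type. IFI44L had 81.4, 116 and 81.9 in the edited line with TGFβ, against 11.3, 17.2 and 10.6 in the untreated edited line. It had 17.6, 57.5 and 37.0 in wild type with TGFβ, against 5.98, 3.30 and 8.59 in untreated wild type, so its lowest treated library, replicate 1 of wild type, was still above all untreated ones of wild type. The log2 fold change of IFI44L was 2.75 ± 0.44 in the edited line and 2.39 ± 0.44 in wild type.

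SAMD9 had counts of 5324, 5329 and 5538 in the edited line with TGFβ, against 1281, 1083 and 1052 in the untreated edited line. In wild type they were 3202, 3734 and 5097 with TGFβ, against 928, 990.3 and 1069 untreated. The groups of a line did not overlap, and the rise was 2.25 ± 0.13, adjusted p = 1.73e-10 in the edited line and 1.98 ± 0.13, adjusted p = 9.72e-10 in wild type on the log2 scale. The neighbouring SAMD9L, no member of the list and chosen after its values were seen, rose by 1.66 ± 0.13 and 1.17 ± 0.13. IFI6, a mitochondrial and endoplasmic reticulum protein gene that limits cell death in infection, had 526, 475 and 449 in the edited line with TGFβ, against 208, 166 and 169 in the untreated edited line. Its counts were 356, 440.1 and 378 in wild type with TGFβ, against 318, 215 and 246 in untreated wild type. Replicate 1 of untreated wild type was the highest untreated library of IFI6, yet the groups did not overlap. IFI6 rose by 1.41 ± 0.15 in the edited line and 0.60 ± 0.15 in wild type.

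**Figure D3:**
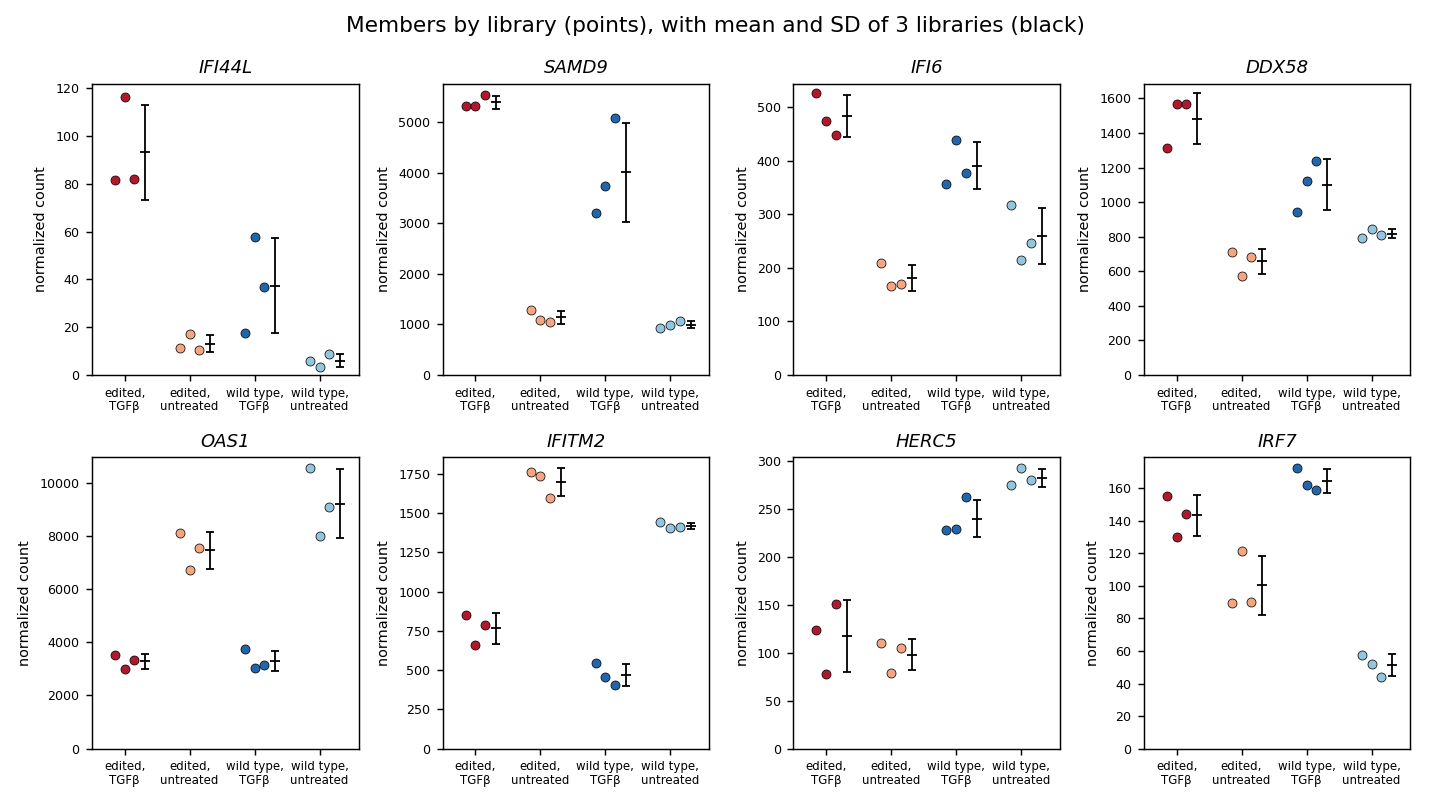
Normalized counts by library (points) with the mean and SD of the 3 libraries of each group (black) for 8 genes, on axes that start at 0. IFI44L, SAMD9, IFI6 and DDX58 were higher and OAS1 and IFITM2 lower with TGFβ in both lines; HERC5 was lower in the edited line in both conditions, and the untreated counts of IRF7 differ between the lines.

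The transcription factors of the pathway rose or were not called. STAT2, the ISGF3 subunit that carries the activation domain, had 3575, 4072 and 3458 in the edited line with TGFβ, against 3055, 2775 and 2889 in the untreated edited line, and 2948, 3508 and 3817 in wild type with TGFβ, against 2509, 2786 and 2908 in untreated wild type. Its rise was 0.35 ± 0.09 in the edited line and 0.32 ± 0.09 in wild type, and the difference of the responses was 0.03 ± 0.13, adjusted p = 0.918. IRF9, the DNA-binding subunit, had 43.8, 53.8 and 28.4 in the edited line with TGFβ, against 33.0, 18.2 and 33.5 in the untreated edited line. Counts of IRF9 were 38.5, 53.7 and 57.2 in wild type with TGFβ, against 6.98, 26.4 and 31.2 in untreated wild type, and replicate 1 of untreated wild type was the lowest of all 12. IRF9 was not called in the edited line (0.56 ± 0.46, adjusted p = 0.307) and was called in wild type (1.39 ± 0.46, adjusted p = 0.0161), where the call ended without that library (0.76). In the annotation, IRF9 shares 48.4% of its exonic length with the readthrough gene AL136295.5 on the same strand, so its counts are uncertain.

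IRF7, which drives interferon genes once phosphorylated, had 156, 130.3 and 144 in the edited line with TGFβ, against 89.8, 121 and 89.9 in the untreated edited line. Its counts were 173, 162 and 159 in wild type with TGFβ, against 57.8, 51.9 and 44.0 in untreated wild type. All untreated wild type libraries were below all others, and replicate 2 stood highest among those of the untreated edited line. IRF7 rose by 0.52 ± 0.19 in the edited line (adjusted p = 0.022) and by 1.67 ± 0.19 in wild type (adjusted p = 8.15e-07), and the response of the edited line minus that of wild type was -1.15 ± 0.26 (adjusted p = 0.0069). The call within the edited line ended without replicate 1 or 3 of the edited line with TGFβ (0.46 and 0.52) or replicate 1 or 3 of the untreated edited line (0.45 for each). IRF1, an activator that interferon gamma induces, had 1836, 1834 and 1812 in the edited line with TGFβ, against 1136, 1239 and 978 in the untreated edited line. It had 1813, 1818 and 1689 in wild type with TGFβ, against 1794, 1367 and 1496 in untreated wild type. Its treated counts were alike in the lines, and its untreated counts were lower in all 3 libraries of the edited line than in wild type. IRF1 rose in the edited line (0.72 ± 0.10) and was not called in wild type (0.20 ± 0.10, adjusted p = 0.0914). The difference of the responses was 0.52 ± 0.14, adjusted p = 0.0193, a call that was lost with replicate 3 of the untreated edited line left out (0.42), and likewise with untreated wild type replicate 1 left out (0.41).

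The cytosolic RNA sensors parted. DDX58 (also called RIG-I), which recognises RNA with a 5′ triphosphate, had 1311, 1569.9 and 1569.9 in the edited line with TGFβ, against 713, 575 and 684 in the untreated edited line. It had 942, 1125 and 1238 in wild type with TGFβ, against 795, 845 and 809 in untreated wild type, and in both lines every treated library was above every untreated one. DDX58 rose by 1.17 ± 0.11 in the edited line (adjusted p = 1.16e-07) and by 0.42 ± 0.11 in wild type (adjusted p = 0.00357). The response of the edited line was larger by 0.75 ± 0.16 (adjusted p = 0.00387). IFIH1 (MDA5), which recognises long double-stranded RNA, fell, with 1121, 1384 and 1215 in the edited line with TGFβ, against 2053, 2095 and 2018 in the untreated edited line. In wild type the counts of IFIH1 were 1046, 1094 and 1178 with TGFβ, against 1454, 1571 and 1521 untreated, again without overlap. Its log2 fold change was -0.73 ± 0.08 in the edited line and -0.45 ± 0.08 in wild type, and the difference of the responses was not called (-0.28 ± 0.12, adjusted p = 0.113). The helicase gene DDX60, reported to aid RIG-I, averaged 1284 ± 208 with TGFβ and 953 ± 82.5 untreated in the edited line (0.42 ± 0.15, called), and 979 ± 211 with TGFβ and 885 ± 112 untreated in wild type (0.13 ± 0.15, not called). The DDX60 call ended without replicate 2 of the edited line with TGFβ (0.30), without replicate 1 or 2 of the untreated edited line (0.39 for each) and with reads scaled to equal totals (0.35).

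IFIT proteins bind foreign RNA caps and block translation. IFIT1 had 291, 230.4 and 341 in the edited line with TGFβ, against 178, 166 and 155 in the untreated edited line. It had 179, 187 and 222 in wild type with TGFβ, against 163, 155 and 155 in untreated wild type. IFIT1 was called higher in the edited line (0.77 ± 0.16, adjusted p = 0.000461) and not in wild type (0.31 ± 0.16, adjusted p = 0.103), although no library of either line overlapped between its groups, and the difference of the responses was not called (0.46 ± 0.22, adjusted p = 0.179). IFIT2 and IFIT3 were not called in any comparison. IFIT2 averaged 144 ± 29.4 in the edited line with TGFβ and 169 ± 14.4 in the untreated edited line, 131 ± 12.1 in wild type with TGFβ and 165 ± 8.86 in untreated wild type. IFIT3 averaged 184 ± 32.6, 142 ± 24.1, 122 ± 24.6 and 125 ± 14.2 in the same groups. IFIT5, the highest of the 4 per kilobase, fell in wild type (1435 ± 91.4 with TGFβ, against 1999.8 ± 92.4 untreated; -0.48 ± 0.08) and was not called in the edited line (-0.18 ± 0.08, adjusted p = 0.0502).

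The OAS enzymes make the messenger that activates RNase L, and their genes did not move together. OAS1 had 3521, 2985 and 3334 in the edited line with TGFβ, against 8105, 6705 and 7535 in the untreated edited line. It had 3731, 3018 and 3133 in wild type with TGFβ, against 10565, 7985 and 9087 in untreated wild type. Treated libraries of both lines lay in 1 band, from 2985 to 3731, well below the untreated ones. OAS1 fell by 1.18 ± 0.10 in the edited line and fell by 1.48 ± 0.10 in wild type on the log2 scale. OAS2 was near the detection limit, with 6.26, 7.54 and 4.55 in the edited line with TGFβ, against 42.3, 46.1 and 39.2 in the untreated edited line, and 4.40, 2.88 and 10.1 in wild type with TGFβ, against 35.9, 17.3 and 5.37 in untreated wild type. The edited line separated cleanly by treatment for OAS2 (-2.63 ± 0.58), while replicate 3 of untreated wild type lay within the treated range. The wild type value for OAS2 (-1.40 ± 0.58, adjusted p = 0.0455) was called with all libraries. The call ended when any library other than replicate 3 of each wild type group was left out (adjusted p = 0.0501 to 0.251), with no filter, with only the groups compared and with the replicate block. Without replicate 3 of untreated wild type the value was -2.08.

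OAS3, the longest of the family, averaged 7183 ± 570.0 with TGFβ and 6417 ± 247 untreated in the edited line and 7111 ± 411 with TGFβ and 7769 ± 210.4 untreated in wild type. Its rise in the edited line (0.16 ± 0.07, adjusted p = 0.043) ended when any of 8 libraries was left out (0.10 to 0.17 on the log2 scale) and with no filter, TMM factors or edgeR (0.13 to 0.16), and was 0.09 with reads scaled to equal totals. OASL, which lacks enzyme activity and binds RIG-I, had 64.7, 62.5 and 83.05 in the edited line with TGFβ, against 28.9, 44.0 and 18.0 in the untreated edited line. It had 56.1, 45.1 and 63.9 in wild type with TGFβ, against 41.9, 62.6 and 80.6 in untreated wild type. Replicate 3 was the highest of the treated and the lowest of the untreated libraries of the edited line. OASL rose in the edited line (1.26 ± 0.33, adjusted p = 0.003) and was not called in wild type (-0.13 ± 0.33, adjusted p = 0.754); the difference of the responses was 1.39 ± 0.46, adjusted p = 0.0503. MX1, a GTPase that traps viral nucleocapsids, had 24.0, 24.8 and 29.6 in the edited line with TGFβ, against 42.3, 37.5 and 36.8 in the untreated edited line. It had 14.3, 8.63 and 15.1 in wild type with TGFβ, against 21.9, 50.3 and 34.4 in untreated wild type. MX1 fell in wild type (-1.38 ± 0.35) and was not called in the edited line (-0.56 ± 0.35, adjusted p = 0.177), where its groups did not overlap either.

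ISG15 is a ubiquitin-like protein that HERC5 attaches to others and USP18 removes. ISG15 averaged 152 ± 2.42 with TGFβ and 184 ± 9.43 untreated in the edited line and 136 ± 16.8 with TGFβ and 116 ± 4.98 untreated in wild type. It was not called with TGFβ in either line (-0.28 ± 0.15 and 0.22 ± 0.15). USP18, which also holds back the type I receptor, fell by 0.52 ± 0.10 in the edited line and fell by 0.29 ± 0.10 in wild type, where the call ended without replicate 1 of untreated wild type (-0.22). Its means were 709 ± 69.1 with TGFβ and 1016 ± 65.6 untreated in the edited line, and 780.0 ± 39.4 with TGFβ and 956 ± 89.1 untreated in wild type. HERC6, a relative of HERC5, fell by 0.83 ± 0.09 in the edited line and fell by 0.66 ± 0.09 in wild type on the log2 scale. HERC5 was not called with TGFβ in either line (0.22 ± 0.21 and -0.24 ± 0.21).

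IFITM proteins sit in membranes and block virus entry. IFITM2 had 852, 660.1 and 786 in the edited line with TGFβ, against 1761, 1733 and 1597 in the untreated edited line. It had 545, 454 and 405 in wild type with TGFβ, against 1441, 1405 and 1414 in untreated wild type. Untreated libraries of both lines were above all treated ones, and the gene fell by 1.15 ± 0.11 in the edited line and fell by 1.61 ± 0.11 in wild type on the log2 scale. IFITM3 had the same order of groups, with 186, 109 and 198 in the edited line with TGFβ, against 298, 309 and 307 in the untreated edited line, and 107, 76.7 and 93.3 in wild type with TGFβ, against 213, 239.7 and 290.0 in untreated wild type. It fell by 0.94 ± 0.21 in the edited line and fell by 1.42 ± 0.21 in wild type. IFITM1 was close to 0, with 11.5, 7.54 and 12.5 in the edited line with TGFβ, against 21.7, 9.65 and 21.3 in the untreated edited line, and 0, 6.71 and 1.68 in wild type with TGFβ, against 10.97, 10.7 and 9.67 in untreated wild type. Its call in wild type (-2.06 ± 0.65, adjusted p = 0.0113) ended without replicate 1 of wild type with TGFβ (-1.33) and was -2.80 without replicate 2 of that group; in the edited line it was not called (-0.63 ± 0.65, adjusted p = 0.411). IFITM1 shares 351 exonic bases, 32.5% of its exonic length, with IFITM2 on the same strand in the annotation, so how reads were divided between them is uncertain. These bases are 22.7% of the exonic length of IFITM2. Likeness of sequence among IFITM1, IFITM2 and IFITM3 was not examined, so their results may not be independent.

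BST2, or tetherin, which holds budding virus at the cell surface, also had few reads. Its counts were 2.09, 4.31 and 9.10 in the edited line with TGFβ, against 13.4, 21.5 and 23.7 in the untreated edited line, and 2.20, 1.92 and 9.25 in wild type with TGFβ, against 5.98, 4.12 and 4.30 in untreated wild type. Replicate 3 was the highest treated library in both lines. The 3 untreated edited libraries alone reached a count of 10, so BST2 passed the filter only through the group where it was high, and a difference from that group is favoured by that choice. BST2 fell in the edited line (-1.86 ± 0.62, adjusted p = 0.0157), a call that ended without replicate 1 of the edited line with TGFβ (-1.45) or replicate 2 or 3 of the untreated edited line (-1.78 and -1.71). It was not called in wild type (-0.33 ± 0.62). IFI35, which regulates RIG-I signalling, averaged 775 ± 23.8 with TGFβ and 1192 ± 77.0 untreated in the edited line, and 768 ± 121 with TGFβ and 1465 ± 109 untreated in wild type, so it fell by 0.62 ± 0.10 in the edited line and fell by 0.94 ± 0.10 in wild type. IFI27 was not called in any comparison, and replicate 2 of the edited line with TGFβ, at 86.1, was its highest library against 30.3 and 22.8 in the other two of that group.

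Among the other effectors, EPSTI1, a gene that interferon and stroma induce in epithelial cells, was near 0 with TGFβ. EPSTI1 had 0, 0 and 2.28 in the edited line with TGFβ, against 16.5, 30.0 and 33.5 in the untreated edited line. It had 2.20, 0 and 3.36 in wild type with TGFβ, against 41.9, 37.9 and 37.6 in untreated wild type. No treated library reached the lowest untreated one, EPSTI1 passed the filter through its untreated libraries alone, and the log2 fold change was -4.16 ± 0.65 in the edited line and -4.06 ± 0.65 in wild type (-3.42 without replicate 2 of wild type with TGFβ). PARP9 and PARP14, ADP-ribosyltransferase genes that act in interferon signalling, rose. PARP9 had 2629, 2355 and 2564 in the edited line with TGFβ, against 1483, 1320.4 and 1360.1 in the untreated edited line, and 1774, 1966 and 2123 in wild type with TGFβ, against 969, 1127 and 906 in untreated wild type, with no overlap in either line. Its rise was 0.86 ± 0.09 in the edited line and 0.97 ± 0.09 in wild type. PARP14 rose by 0.27 ± 0.11 and 0.28 ± 0.11, and either call ended when any of 7 or 8 libraries was left out (0.20 to 0.27 in the edited line, 0.14 to 0.28 in wild type) and with reads scaled to equal totals (0.20 and 0.26), with no filter (0.27 and 0.28) or with TMM factors (0.23 and 0.27). The edited line call of PARP14 also ended with edgeR (0.24) and its wild type call with only the groups compared (0.28). CMPK2, a mitochondrial nucleotide kinase gene next to RSAD2, rose by 0.66 ± 0.26 in the edited line and 0.84 ± 0.26 in wild type. Its edited line call ended without replicate 1 or 3 of the edited line with TGFβ (0.70 and 0.50) or replicate 2 of the untreated edited line (0.45), and its wild type call without replicate 2 of wild type with TGFβ (0.68). With no filter, equal totals, only the groups compared or edgeR, CMPK2 missed the threshold in the edited line as well (0.59 to 0.66). The capsid- and virus-restricting TRIM22 was not called with TGFβ in either line (-0.57 ± 0.30 and -0.62 ± 0.30).

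The second question was which of these genes set the lines apart when no TGFβ was given. Of the 35 genes, 7 were higher in the untreated edited line and 9 lower, and 19 were not called; over all genes tested, 14.3% were higher and 17.5% lower (31.8% in either direction). The median log2 fold change was 0.19, and that of all genes 0.00. The higher genes were IRF7, IFIH1, ISG15, BST2, PARP9, PARP14 and TRIM22, and the lower ones IRF1, DDX58, IFIT5, OAS1, OAS3, OASL, HERC5, IFI6 and IFI35. BST2 passed the filter only through the untreated edited libraries, so its place among the higher genes is favoured by that choice. The 9 lower genes became 5 without replicate 2 and 4 without replicate 3 of the untreated edited line, 4 without replicate 1 or replicate 3 of untreated wild type, and 5 with no filter. Libraries did not overlap for 12 genes higher and 8 lower, against 23.7% and 25.1% of all genes.

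HERC5 differed most among the calls that every alternative kept. It had 110.4, 79.4 and 105 in the untreated edited line, against 275, 293 and 280.4 in untreated wild type, and the groups did not overlap with TGFβ either, at 124, 77.5 and 151 in the edited line against 229, 229 and 262 in wild type. The log2 fold change was -1.53 ± 0.21, adjusted p = 4.59e-05 without TGFβ and -1.07 ± 0.21, adjusted p = 0.00346 with it. IRF7 was higher (0.95 ± 0.19), as were ISG15 (0.66 ± 0.15), PARP9 (0.48 ± 0.09) and IFIH1 (0.44 ± 0.08). ISG15 had 175, 194 and 183 in the untreated edited line against 118, 120.3 and 111 in untreated wild type, without overlap. IRF1 (-0.47 ± 0.10) and OAS3 (-0.28 ± 0.07) were lower under every alternative, and OAS3 averaged 6417 ± 247 in the untreated edited line and 7769 ± 210.4 in untreated wild type.

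The 9 other calls were less firm. BST2, which entered the test only through the untreated edited libraries, was higher there by 1.80 ± 0.62, adjusted p = 0.0369, and the call ended without replicate 2 or 3 of the untreated edited line or any of the 3 untreated wild type libraries (1.65 to 1.94). TRIM22 had 176, 122 and 139.8 in the untreated edited line, against 50.8, 73.3 and 132 in untreated wild type, which overlapped; its difference of 0.86 ± 0.30 was 0.55 without replicate 1 of the wild type group, and the call also ended without replicate 2 of that group or replicate 1 or 3 of the untreated edited line (0.72 to 0.89). PARP14 had 5821, 5928 and 5924 in the untreated edited line against 4016, 5013 and 4448 in untreated wild type (0.40 ± 0.11), a call lost without replicate 1 of untreated wild type (0.32). The log2 fold change was -1.04 ± 0.33 for OASL, -0.50 ± 0.15 for IFI6, -0.32 ± 0.11 for DDX58, -0.30 ± 0.10 for OAS1, -0.30 ± 0.10 for IFI35 and -0.22 ± 0.08 for IFIT5. The IFI6 call ended without replicate 2 or 3 of the untreated edited line, or in untreated wild type replicate 1 (-0.46 to -0.35). The DDX58 call ended without replicate 2 or 3 of the untreated edited line, replicate 2 of wild type with TGFβ or any untreated wild type library (-0.35 to -0.22). The OAS1 call ended without replicate 3 of the edited line with TGFβ, replicate 2 or 3 of the untreated edited line, or in untreated wild type replicate 1 or 3 (-0.31 to -0.20). IFI35 was lost without replicate 1 or 3 of the untreated edited line or any untreated wild type library (-0.33 to -0.24). IFIT5 was lost without replicate 1 of the edited line with TGFβ, replicate 1 or 2 of the untreated edited line, replicate 2 of wild type with TGFβ, or in untreated wild type replicate 1 or 3 (-0.23 to -0.17). OASL was lost without replicate 1 or 3 of the untreated edited line (-1.05 and -0.72), or in untreated wild type replicate 2 or 3 (-1.01 and -0.83). With no filter the calls of DDX58, IFIT5, OAS1, BST2, IFI35 and TRIM22 ended, and with only the groups compared those of OAS1, OASL, IFI6 and TRIM22, at the same fold changes. With equal totals, TMM factors or edgeR that of DDX58 ended (-0.30 to -0.29).

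With TGFβ, edited line against wild type, 8 of the 35 genes were higher and 1 was lower, and 26 were not called; over all genes tested, 7.38% were higher and 4.32% lower (11.7% in either direction). The median log2 fold change was 0.19, and that of all genes 0.01. The higher genes were DDX58, IFIT1, IFITM2, IFITM3, IFI44L, PARP9, PARP14 and SAMD9, and HERC5 was lower. The libraries of the lines did not overlap for 14 genes higher and 2 lower, against 15.2% and 11.4% of all genes. The count of 8 fell to 4 without replicate 1 or replicate 2 and to 1 without replicate 3 of the edited line with TGFβ. It was 3 without replicate 1 or replicate 2 of wild type with TGFβ, 3 with only the groups compared in the fit and 5 with reads scaled to equal totals. Without replicate 1 of both TGFβ groups, a choice made after the data were seen because that wild type library had the highest mitochondrial share (3.79%), it was 3. The 3 libraries of wild type with TGFβ were graded, with mitochondrial shares of 3.79%, 3.22% and 2.73% in replicates 1 to 3. Their summed counts of all listed genes were 33670, 36369 and 39301, and the part of this grading in the calls was not tested.

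Only the calls of IFITM2 and HERC5 were kept under every alternative run. IFITM2 had 852, 660.1 and 786 in the edited line with TGFβ, against 545, 454 and 405 in wild type with TGFβ, a difference of 0.71 ± 0.11, adjusted p = 0.000562. IFITM3 differed by 0.79 ± 0.21, a call that ended without replicate 1 or 3 of the edited line with TGFβ (0.68 and 0.63) or replicate 2 of wild type with TGFβ (0.67). IFI44L differed by 1.43 ± 0.44, adjusted p = 0.0454, with all 3 edited line libraries above the highest wild type one, and the call ended when any of 8 libraries was left out (0.98 to 1.51). DDX58 differed by 0.43 ± 0.11, SAMD9 by 0.46 ± 0.13, IFIT1 by 0.54 ± 0.16, PARP14 by 0.39 ± 0.11 and PARP9 by 0.37 ± 0.09. Without replicate 1 of wild type with TGFβ the values were 0.33 for DDX58, 0.31 for SAMD9, 0.48 for IFIT1 and 0.25 for PARP14, and none of these was called. Without replicate 3 of the edited line with TGFβ the calls of DDX58 (0.39), SAMD9 (0.44), IFIT1 (0.41), PARP14 (0.39) and PARP9 (0.35) ended, and without replicate 2 of wild type with TGFβ they were at 0.45, 0.42, 0.51, 0.39 and 0.37 and were not called. Calls also ended without replicate 1 of the edited line with TGFβ for SAMD9 (0.47), IFIT1 (0.52) and PARP9 (0.33), and without its replicate 2 for DDX58 (0.39), SAMD9 (0.46) and PARP14 (0.32). With only the groups compared, DDX58, IFIT1, IFITM3, IFI44L, PARP14 and SAMD9 missed the threshold at the same fold changes, and with equal totals IFI44L (1.39), PARP14 (0.36) and SAMD9 (0.42) did. With no filter IFI44L did.

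**Figure D4:**
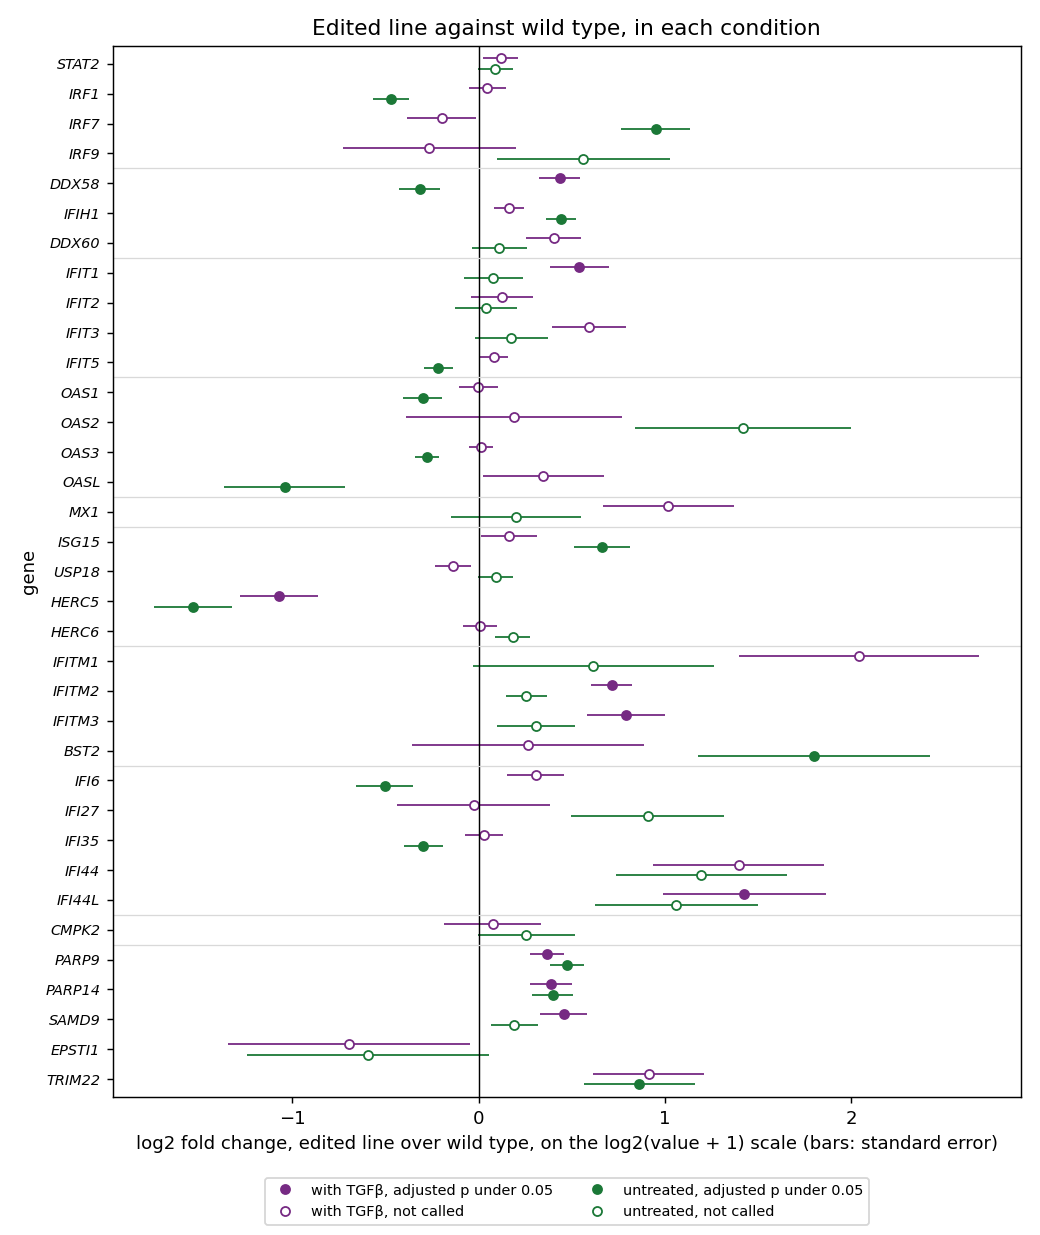
Each row is a gene and the horizontal axis its log2 fold change, edited line over wild type, with TGFβ (purple, upper point) and untreated (green, lower point), with bars of 1 standard error and filled points where the adjusted p was under 0.05. HERC5 lies to the left in both conditions, and the points of DDX58 lie on opposite sides of 0.

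The difference of the TGFβ responses, edited line minus wild type, was called above 0 for 4 of the 35 genes and below 0 for 1, and 30 were not called; over all genes tested, 10.6% were above 0 and 6.02% below (16.6% in either direction). Its median was 0.27, and that of all genes 0.02. The genes above 0 were IRF1, DDX58, OAS3 and IFI6 (0.81 ± 0.22, adjusted p = 0.0171), and the gene below 0 was IRF7. DDX58 was called higher in the edited line with TGFβ and lower without it; IFI6 was called lower without TGFβ and not called with it (0.31 ± 0.15). The IFI6 call ended without replicate 1 of both TGFβ groups (0.68), and that of OAS3 (0.29 ± 0.09, adjusted p = 0.0433) without any of 10 libraries (0.23 to 0.31) and with no filter, equal totals, TMM factors or edgeR (0.24 to 0.29). The count of 4 was 2 without replicate 3 of the untreated edited line, where IRF1 was lost at 0.42, and 7 with DESeq2. The 1 gene below 0 became 3 without replicate 2 of the edited line with TGFβ.

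The rest of the pathway was read from lists of its other genes. Of 11 interferon genes, 7 had no read in any library, IFNB1 and IFNG among them, and 2 passed the filter. IFNE, an interferon of mucosal epithelium, had 182, 204 and 121 in the edited line with TGFβ, against 36.1, 18.2 and 36.8 in the untreated edited line. It had 188, 131 and 222 in wild type with TGFβ, against 21.9, 20.6 and 33.3 in untreated wild type, so all treated libraries were above all untreated ones, and it rose by 2.47 ± 0.31 and 2.79 ± 0.31. Overlap of IFNE with other annotated genes was not looked up, so its reads may include those of another transcript. IFNA1 averaged 11.4 ± 4.43 in the edited line with TGFβ, where the untreated libraries were all at 0, at least 3.92-fold higher with a floor of 3 reads per library. IFNA1 passed the filter only through libraries with TGFβ. In wild type it averaged 15.5 ± 5.81 with TGFβ and 2.81 ± 3.30 untreated (2.48 ± 0.74, and 1.73 and 3.18 without replicate 2 or 3 of untreated wild type). Genes of the IFNA family are near-identical, so its reads may be shared with others.

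Of 9 receptor and kinase genes, 5 rose and 3 fell with TGFβ in the edited line, and 2 rose and 3 fell in wild type, beside 32.1% and 30.7% of all genes in the edited line and 30.8% and 30.9% in wild type. JAK1 rose in both (1.30 ± 0.06 and 0.97 ± 0.06), as did IFNGR2 (0.69 ± 0.08 and 0.51 ± 0.08), while JAK2 (-0.35 ± 0.09 and -0.82 ± 0.09) and IL10RB (-0.39 ± 0.08 and -0.44 ± 0.08) fell. In the untreated edited line 5 of the 9 were lower than in wild type, beside 17.5% of all genes: IFNAR2, JAK1, JAK2, IFNGR1 and IFNGR2. IFNAR2 had 1575, 1712 and 1593 in the untreated edited line against 2204, 2525 and 2347 in untreated wild type (-0.53 ± 0.08), and 2224, 2315 and 2287 in the edited line with TGFβ against 1942, 2335 and 2445 in wild type with TGFβ (0.03 ± 0.08, adjusted p = 0.878). The lines stood apart untreated and overlapped with TGFβ, and the edited line's response exceeded that of wild type by 0.56 ± 0.12, adjusted p = 0.00381. The difference of the responses was also above 0 for JAK1 (0.33 ± 0.08), JAK2 (0.48 ± 0.12) and IFNGR1 (0.47 ± 0.08). Of the untreated calls, that of JAK2 ended without replicate 1 or 3 of the untreated edited line, or in untreated wild type replicate 1 or 2 (-0.28 to -0.22), and with equal totals (-0.25). That of IFNGR2 ended without replicate 1 or 2 of the untreated edited line, or in untreated wild type replicate 1 or 3 (-0.25 to -0.22), and that of IFNGR1 without any of 9 libraries (-0.17 to -0.13) and with no filter, equal totals, TMM factors or edgeR (-0.14 to -0.12).

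Of 7 genes that brake the pathway, 4 rose and 1 fell with TGFβ in the edited line, and 1 rose and 2 fell in wild type, beside the same 32.1%, 30.7%, 30.8% and 30.9% of all genes. SOCS1, a feedback inhibitor of JAK kinases, rose in both. It had 25.1, 17.2 and 11.4 in the edited line with TGFβ, against 2.06, 4.29 and 3.27 in the untreated edited line. It had 23.1, 35.5 and 25.2 in wild type with TGFβ, against 1.99, 0 and 13.96 in untreated wild type, with no overlap within a line. Its log2 fold change was 2.14 ± 0.75, adjusted p = 0.0202 in the edited line, a call that ended without replicate 1 of the edited line with TGFβ (1.87) or of the untreated edited line (1.93), and 3.00 ± 0.75, adjusted p = 0.00235 in wild type (2.09 with replicate 2 and 4.04 with replicate 3 of untreated wild type left out). SOCS3, another feedback inhibitor, averaged 2444 ± 102 with TGFβ and 2093 ± 106 untreated in the edited line and 2746 ± 103 with TGFβ and 3145 ± 121 untreated in wild type. It rose in the edited line (0.22 ± 0.06) and fell in wild type (-0.20 ± 0.06, a call lost without replicate 3 of untreated wild type, -0.16).

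**Figure D5:**
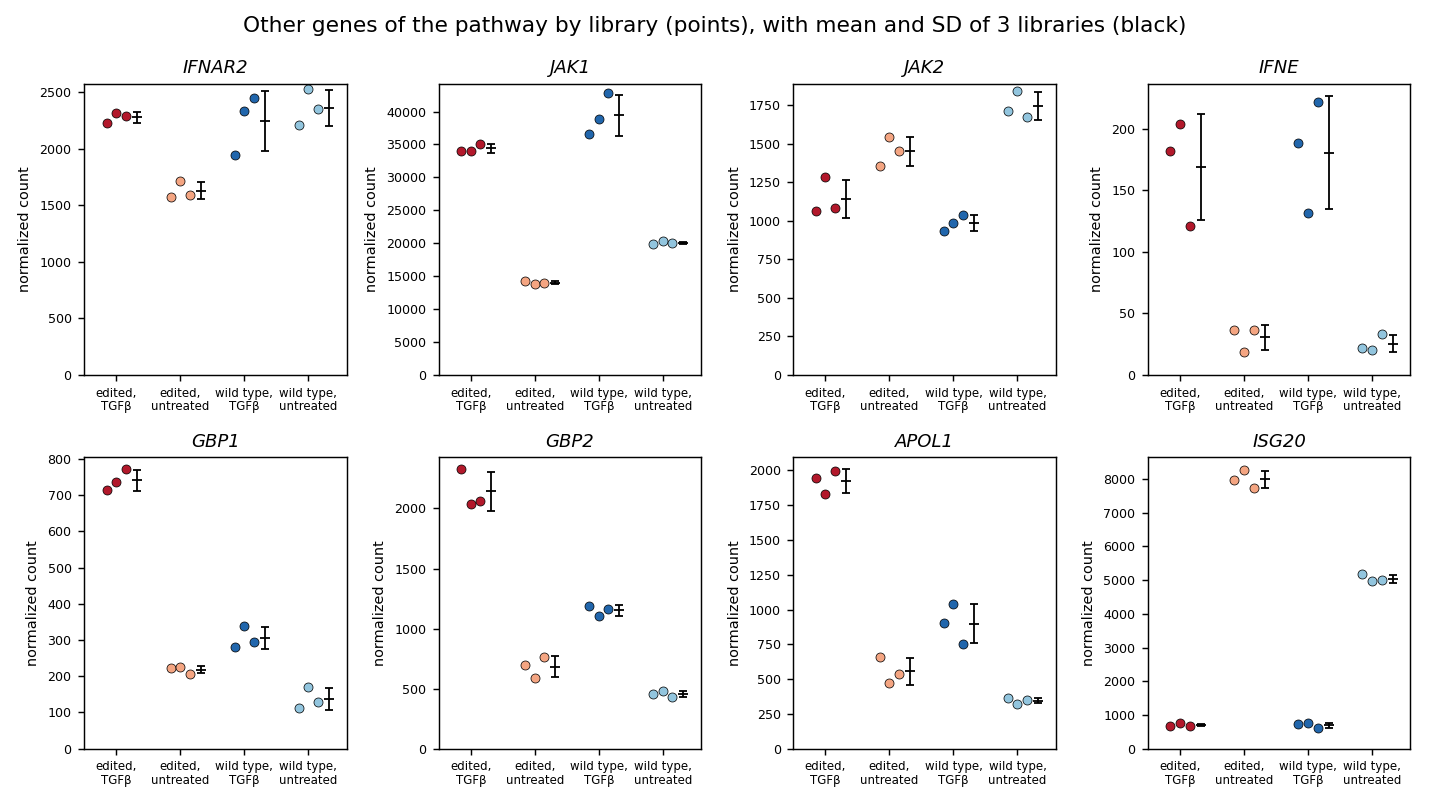
Normalized counts by library (points) with the mean and SD of the 3 libraries of each group (black) for 8 further genes of the pathway, on axes that start at 0. IFNAR2, JAK1 and JAK2 were lower in the untreated edited line than in untreated wild type, IFNE, GBP1, GBP2 and APOL1 were higher with TGFβ in both lines, and ISG20 was lower.

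Upstream of interferon, of 15 tested genes of nucleic acid sensing, 7 rose and 2 fell with TGFβ in the edited line, and 6 rose and 4 fell in wild type, beside 32.1% and 30.7% of all genes in the edited line and 30.8% and 30.9% in wild type. The adaptor genes TICAM1 (0.90 ± 0.09 and 0.87 ± 0.09) and MAVS (0.75 ± 0.07 and 0.58 ± 0.07) rose in both lines, and the endosomal RNA receptor TLR3 fell in both (-1.07 ± 0.18 and -1.21 ± 0.18). ZBP1, a sensor of Z-form nucleic acid, was at 0 in all 6 untreated libraries and reached a count of 10 only in the 3 of wild type with TGFβ, through which alone it passed the filter. It had 2.09, 8.61 and 6.83 in the edited line with TGFβ and 13.2, 15.3 and 16.8 in wild type with TGFβ. As a description of these libraries, with a floor of 3 reads per library it was at least 2.00-fold higher with TGFβ in the edited line and at least 5.22-fold higher in wild type. TREX1 was listed at 0 in every library. Overlap with other annotated genes was not looked up for TREX1, so this 0 may not mean absence. Among 35 other interferon-stimulated genes tested, 17 rose and 8 fell in the edited line, and 14 rose and 11 fell in wild type, beside 32.1% and 30.7% of all genes in the edited line and 30.8% and 30.9% in wild type. With TGFβ, 16 of the 35 were higher in the edited line than in wild type, beside 7.38% of all genes. This list, like the others here, was chosen with earlier results of these data known, so the share is a description only.

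The guanylate-binding GTPase GBP1 had 715, 737 and 771 in the edited line with TGFβ, against 222, 226 and 207 in the untreated edited line. It had 281, 338 and 294 in wild type with TGFβ, against 113, 169.7 and 128 in untreated wild type. The 4 groups did not overlap. GBP1 rose by 1.76 ± 0.14 and 1.17 ± 0.14, and levels in the edited line exceeded wild type by 1.28 ± 0.14 with TGFβ and 0.69 ± 0.14 without. GBP2 rose by 1.65 ± 0.10 in the edited line and 1.34 ± 0.10 in wild type, and the trypanosome-lytic factor gene APOL1 by 1.80 ± 0.13 and 1.36 ± 0.13; both were also higher in the edited line in either condition (GBP2 was chosen after its values were seen). The exonuclease gene ISG20 went the other way. It had 685, 748 and 685 in the edited line with TGFβ, against 7978, 8260.1 and 7747 in the untreated edited line. It had 738, 747 and 607 in wild type with TGFβ, against 5171, 4961 and 4989.8 in untreated wild type, so it fell by 3.50 ± 0.08 in the edited line and fell by 2.86 ± 0.08 in wild type. Without TGFβ, ISG20 was higher in the edited line than in wild type (0.67 ± 0.08), and with TGFβ the lines did not differ past the threshold (0.02 ± 0.08, adjusted p = 0.897). The tryptophan-tRNA ligase gene WARS, which interferon gamma induces, fell by 1.75 ± 0.08 in the edited line and fell by 0.90 ± 0.08 in wild type.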

How the data were processed

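RNA-seq was done on 12 libraries of A549 cells. The authors deposited a signal per gene, a read count scaled to the library. The submitters' processing notes name HISAT2, StringTie, featureCounts, DESeq2 and the build GRCh38.p14. Tool versions and any use of strand in counting were not given in the sources used here. Each library's values were whole multiples of 1 step, and division by that step returned whole reads (100% of values, tolerance 0.01). The test was limma 3.58.1 with a trend (R 4.3.3) on log2 of the value plus 1, over the 20456 genes at 10 or higher in 3 or more libraries, in 1 fit of the 4 group means with 5 two-sided comparisons. P-values were adjusted by Benjamini-Hochberg over these genes, with a threshold of 0.05. The added 1 makes log2 fold changes of genes with few reads too small. A value after ± is a standard error beside a fold change and an SD beside a mean. P-values measure the spread between libraries, which the labels call biological repeats.

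The genes and lists were chosen with earlier results of these data known. Values in every library are given for up to 12 called genes of the list per comparison by absolute log2 fold change and for the transcription factor and IFITM genes; from each other list up to 4 called genes per comparison are named, with receptors and JAKs given with any result. The rule names some genes that are not reported here. The table spells cGAS, STING and WARS1 as MB21D1, TMEM173 and WARS. Exon lengths and overlaps came from GENCODE 29, and overlaps were looked up for the genes of the list only. The test was checked on simulated data, where 3.77% to 7.02% of the calls in a comparison were of unchanged genes. Of 1.5-fold changes, 51.6% (the difference of the responses) to 69.7% (the lines untreated) were recovered. Far fewer genes were changed in the simulation than TGFβ moved here. They were drawn only from genes above a set mean count, so recovery of genes with few reads was not measured. Alternatives were a pseudocount of 10, no filter, scaling to equal totals or by TMM, the compared groups alone, a replicate block, edgeR 4.0.16 and DESeq2 1.42.0 on recovered reads, and leaving out each library. On recovered reads edgeR called 12803 genes for TGFβ in the edited line, 12669 for TGFβ in the wild type line, 6529 between the lines untreated, 2564 between them with TGFβ and 3404 for the difference of the responses.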

Additional observations from a re-analysis of the deposited data

Results flagged for a closer look

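The TGFβ response of the edited line minus that of wild type, an interaction in limma, passed an adjusted p of 0.05 for 5 of the 35 genes of the list. That is 14.3%, near the 16.6% of all genes tested. It also passed for 19 other genes of the pathway. These were 4 of 9 receptors and kinases, 3 of 7 brakes, 1 of 15 sensing genes and 11 of 35 other interferon-stimulated genes. Of the 19, the 12 named here are up to 4 of each list by the size of the difference, and 7 other interferon-stimulated genes are not named. Values are log2, edited line minus wild type, so a value above 0 means a higher response in the edited line. In the list they were 0.52 ± 0.14 for IRF1, 0.75 ± 0.16 for DDX58, 0.29 ± 0.09 for OAS3, 0.81 ± 0.22 for IFI6 and -1.15 ± 0.26 for IRF7. DDX58 and IFI6 rose in both lines and more in the edited line, whereas IRF7 rose more in wild type. IRF1 and OAS3 were called higher with TGFβ in the edited line and were not called in wild type.

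Among receptors and kinases the differences were 0.56 ± 0.12 for IFNAR2, 0.47 ± 0.08 for IFNGR1, 0.33 ± 0.08 for JAK1 and 0.48 ± 0.12 for JAK2. SOCS3 differed by 0.42 ± 0.09, rising in the edited line and falling in wild type. The inhibitors PIAS1 and PTPN6 differed by 0.34 ± 0.10 and 0.46 ± 0.13. The DNA sensor MB21D1, or cGAS, differed by 0.51 ± 0.13: it fell in wild type (-0.42 ± 0.09) and was not called in the edited line (0.09 ± 0.09, adjusted p = 0.428). Of other interferon-stimulated genes, APOL6 differed by 0.86 ± 0.19, and fell by 0.89 ± 0.13 in the edited line and fell by 1.74 ± 0.13 in wild type. WARS differed by -0.85 ± 0.11, with the larger fall in the edited line, ISG20 by -0.64 ± 0.11, also with the larger fall in the edited line, and the zinc-finger antiviral protein gene ZC3HAV1 by -0.66 ± 0.13, with the larger rise in wild type. The calls of PIAS1 and PTPN6 ended when some single libraries were left out (0.27 to 0.35 for PIAS1 without any of 8, and 0.40 to 0.44 for PTPN6 without any of 5), and that of PIAS1 also with no filter, equal totals, TMM factors or edgeR (0.29 to 0.34). Of all genes tested, 16.6% were called for this difference in either direction.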

How the results depend on the processing

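Members called higher in the edited line than in wild type with TGFβ numbered 5 with equal totals, 3 with only the groups compared and 3 without replicate 1 of both TGFβ groups, a setting chosen after the data were seen, in place of 8. Members lower without TGFβ numbered 5 with no filter in place of 9, and the difference of the responses was above 0 for 7 with DESeq2 in place of 4. The cause was not tested. Leaving out each library gave 11 to 15 genes higher and 9 to 11 lower for TGFβ in the edited line, 9 to 13 and 10 to 13 in wild type, 5 to 9 and 4 to 9 for the untreated edited line against wild type, 1 to 10 higher and 1 lower with TGFβ, and 2 to 6 above and 1 to 3 below 0 for the difference of the responses. Of 78 calls of members, 47 were kept under every alternative run, 19 of 25 for TGFβ in the edited line, 17 of 23 in wild type, 7 of 16 for the lines untreated, 2 of 9 with TGFβ and 2 of 5 for the difference. No call changed sign. Genes with few reads, such as OAS2, BST2, IFITM1, EPSTI1 and the 3 genes below the filter, are limited by depth.

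Deviations of same-numbered libraries of different groups from their group means had correlations of -0.031 to 0.129, and those of differently numbered ones -0.147 to 0.152. With 3 libraries a group, such correlations cannot show whether the numbers pair the libraries. With a replicate block the counts were 15 and 10 for TGFβ in the edited line, 11 and 11 in wild type, 8 and 9 untreated, 11 and 1 with TGFβ, and 6 and 1 for the difference. Over all genes the block raised the calls in every comparison, for example from 1510 to 1863 higher between the lines with TGFβ.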

Other observations

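Further genes of the pathway moved with TGFβ in both lines. HELZ2, a helicase gene induced by interferon, rose by 1.495 ± 0.14 in the edited line and 1.54 ± 0.14 in wild type. TNFSF10, which encodes the death ligand TRAIL, averaged 269 ± 33.1 with TGFβ and 484 ± 85.5 untreated in the edited line, and 143 ± 19.2 with TGFβ and 396 ± 51.1 untreated in wild type, so it fell by 0.84 ± 0.16 in the edited line and fell by 1.46 ± 0.16 in wild type. With TGFβ, TNFSF10 was higher in the edited line by 0.90 ± 0.16. This gene was named outside the rule, with its values known. GBP3 was higher in the edited line by 0.99 ± 0.10 with TGFβ and 0.54 ± 0.10 without. The chemokine genes CXCL9 and CXCL10, markers of interferon signalling, had at most 13.8 and 13.7 normalized counts as a group mean. CXCL10 was also named outside the rule.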
